A study of Mus musculus with 3 samples.

Results

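The data describe the transcriptome of bone marrow (BM) cells that were flushed from mice after 0 days of leukocyte cell-derived chemotaxin 2 (LECT2), a cytokine. One RNA-sequencing library was analysed, and its genes were ranked by RPKM, which scales the reads of a gene to its length and to the library's total. Of 17250 gene names in the deposited tables, 16018 had at least 1 read in this library and 1232 had none. The series holds 3 libraries, from mice given recombinant LECT2 at 300 μg per kg daily for 0, 3 or 5 days, and no comparison between them was made here. The mice were C57BL/6 and 6 to 8 weeks old, and the study's methods state that males were used. The labels of the 0-day sample give no injected agent, and do not say whether a vehicle was given. The cells came from femur, tibia, pelvis and humerus. A legend of the study calls them BM mononuclear cells, a preparation from which segmented neutrophils are largely removed, whereas the labels and methods name no such separation. The number of mice behind the library is not stated, so the values have no replicate error, and all 95% intervals cover the counting of reads only. PCR copies of a molecule cannot be recognised in these counts.

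BM produces all blood lineages. Neutrophils arise there from promyelocytes, which fill primary granules with myeloperoxidase and elastase, through myelocytes, which fill secondary granules with lactoferrin and antimicrobial peptides. Erythroblasts accumulate globin and heme on islands around macrophages, and B cell precursors rearrange their immunoglobulin genes beside stromal cells. Haematopoietic stem cells (HSCs) are rare among these cells and are held in niches by osteolineage cells, endothelial cells and macrophages. In a bulk library, the number of cells of a type and the RNA content per cell cannot be told apart.

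Reads on genes numbered 15523952. A single read on 1000 bases thus equalled 0.0644 RPKM, and 3 reads, used as the floor of detection, equalled 0.193 RPKM. The median RPKM was 3.47 over all names. A level of at least 1 RPKM was found for 10975 names (63.6%), of at least 10 RPKM for 5672 (32.9%), of at least 100 RPKM for 768 (4.45%) and of at least 1000 RPKM for 85 (0.493%). The median half-width of the counting interval was 2.73% of the level for names with at least 100 RPKM and 9.08% for names with at least 1 RPKM.

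The RNA of the library was concentrated in few genes. The 10 names with the most reads held 12.5% of all reads (exact interval 12.48 to 12.52%), and the 100 names with the most reads held 27.2%. It took 567 names to reach 50% of the reads, whereas 119 names made up 50% of the summed RPKM. The highest level of all was that of S100a9 (gene ID 20202), which encodes a calcium-binding subunit of calprotectin, at 61729 RPKM (interval 61553 to 61907). S100a8 (gene ID 20201), its partner subunit, followed at 28717 RPKM. The secondary granule genes Ngp, Camp and Lcn2 came next, at 21998, 14235 and 10826 RPKM. They encode neutrophilic granule protein, the precursor of a cathelicidin antimicrobial peptide, and lipocalin 2, which binds bacterial siderophores.

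**Figure D1:**
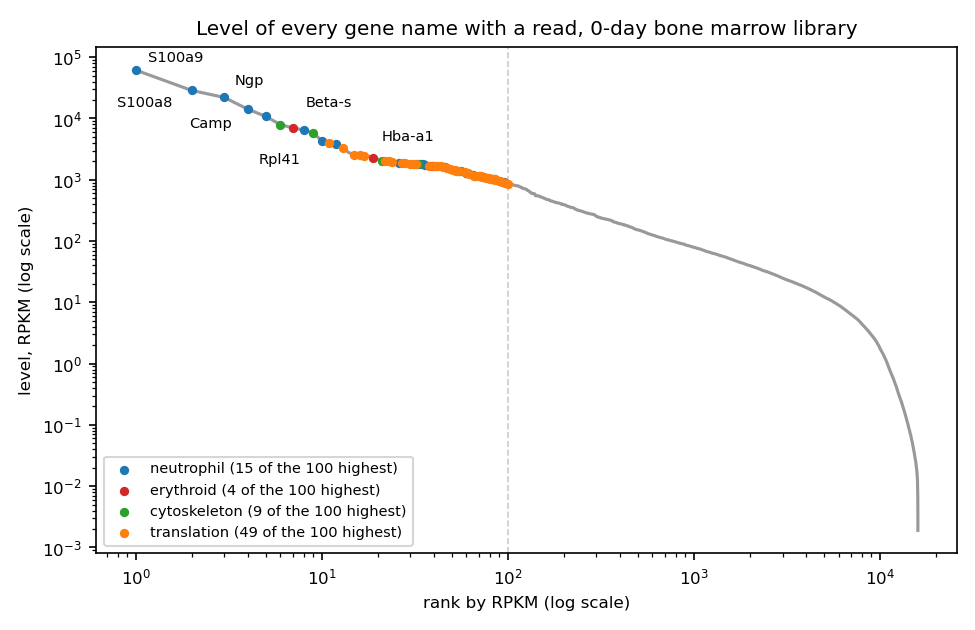
Level of each of the 16018 gene names with a read (vertical axis, RPKM, log scale) against its rank (horizontal axis, log scale) in the 0-day library. Points mark the names of 4 classes among the 100 highest, which end at the dashed line at 846 RPKM. Neutrophil genes hold the first 5 ranks, and 49 of the 100 highest names are translation genes.

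The ranks from 6 to 20 mixed neutrophil, erythroid, cytoskeletal and translation genes. Actb, the cytoplasmic actin, stood at 7947 RPKM, and the beta globin gene Beta-s (gene ID 100503605) at 6999 RPKM. Retnlg, a resistin-like gene of neutrophils, reached 6507 RPKM, and Tmsb4x, the actin-sequestering thymosin beta 4, 5817 RPKM. Ltf, which encodes lactoferrin, was at 4360 RPKM and Lyz2, the lysozyme of myeloid cells, at 3878 RPKM. The other names up to rank 20 were Rpl41 (3925 RPKM), Rplp1 (3272), Prg2 (2771), Rps24 (2554), Rps12 (2510), Eef1a1 (2483), B2m (2402), Hba-a1 (2253) and S100a11 (2179). Rpl41 and Lyz2 were not separated beyond counting error, with a ratio interval of 0.998 to 1.03, and neither were Rps12 and Eef1a1, with one of 0.995 to 1.03. All other neighbours among the first 20 differed beyond it.

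The order differed with the scaling to transcript length. The 100 names with the highest RPKM had a median length of 750.5 bases, against 2629 bases for all names. The 100 names with the most reads, without this scaling, had one of 1702.5 bases. By reads instead of RPKM, the order was S100a9 (467642 reads), Ngp (401597), Actb (233039), Ltf (185604), S100a8 (174755), Lcn2 (143362), Camp (132366), Beta-s (69433), Eef1a1 (69005) and Lyz2 (63633). Of the 20 highest by RPKM, 13 were also among the 20 with the most reads. The names of the lowest length decile, up to 990 bases, held 18.6% of the reads but 47.2% of the summed RPKM. Their median was 2.65 RPKM, below the 3.47 RPKM of all names.

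S100a8 and S100a9 are neighbours on chromosome 3, and the S100a9 level was 2.15 times that of S100a8 (interval 2.14 to 2.16). Their promoters are shown because these transcripts led the library. The sequences are the 90 bases before each start site in RefSeq (GRCm38.p6), at chr3:90668981-90669070 on the plus strand for S100a8 and at chr3:90695722-90695811 on the minus strand for S100a9, and capitals mark TATAAA, searched on both strands.
S100a8: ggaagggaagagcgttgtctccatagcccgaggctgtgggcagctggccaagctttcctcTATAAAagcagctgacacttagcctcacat
S100a9: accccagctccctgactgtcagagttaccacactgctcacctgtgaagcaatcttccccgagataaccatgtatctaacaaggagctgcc
S100a8 held the motif 30 bases before its start. In S100a9 it is not within the printed bases. Within 250 bases before to 50 bases after the start, both genes held TATAAA, as did 13.6% of all 32851 promoters of the RefSeq table. The place of the motif in that window of S100a9 is not given here.

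The 48 neutrophil genes together took 12.7% of the reads and 26.4% of the summed RPKM. By reads, secondary granule genes held the largest part, 7.03% over 15 names, and the pair S100a8 and S100a9 held 4.14%. By summed RPKM this order was reversed, with 14.1% for the pair and 9.63% for the secondary granule genes. All 15 secondary granule names were at 18.9 RPKM or more, and 8 of them were at 1000 RPKM or more, a level that 0.493% of all names reached. The 21 late neutrophil names held 1.04% of the reads and 1.98% of the summed RPKM. The 10 primary granule names held 0.495% and 0.686%, with Srgn, the granule proteoglycan serglycin, at 1911 RPKM, Elane, neutrophil elastase, at 1142, Mpo, myeloperoxidase, at 435 and Prtn3, proteinase 3, at 312. Summed over the lists, secondary granule RPKM was 14.0 times primary granule RPKM. The Ltf level alone was 10.03 times that of Mpo (interval 9.88 to 10.2).

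Late neutrophil transcripts spread over a wide range. After Retnlg, the highest were Ifitm6 at 1775 RPKM, 1100001G20Rik at 902 and Alox5ap, which activates 5-lipoxygenase, at 802. Of the 21 names, 12 were at 100 RPKM or more, that is 57.1% against 4.45% of all names. Ly6g, the gene of a neutrophil surface antigen, had no row in the tables and was not analysed here. The transcripts of the phagocyte oxidase, the enzyme of the respiratory burst, lay within a 3.73-fold range, from Cyba at 595 RPKM to Ncf4 at 160 RPKM.

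The eosinophil, basophil and mast cell lists held both very high and low levels. Prg2, the major basic protein of eosinophil granules, stood at 2771 RPKM, rank 14 of the library. It supplied 63.8% of the reads of the eosinophil list, and the ribonuclease genes Ear1, Ear2 and Ear6 followed at 499, 313 and 258 RPKM. Of the stretches of 50 bases in Ear1, 57.4% are shared with other genes, so that the split between members of this family is uncertain. The basophil proteases Prss34 and Mcpt8 were at 435 and 239 RPKM, Hdc, the enzyme that makes histamine, at 242 and Cpa3 at 76.3. In the same list, Fcer1a and Ms4a2, the alpha and beta chains of the high-affinity IgE receptor, were at 7.60 and 3.13 RPKM, and the mast cell proteases Cma1 and Tpsb2 at 1.25 and 0.237. The basophil and mast cell list had a median of 8.62 RPKM, and geometric means of RPKM + 0.1 and RPKM + 1 of 15.4 and 18.5. Fcer1g, the gamma chain of that receptor, which other myeloid cells share and which is in none of the lists, was at 1706 RPKM. The eosinophil receptor genes Ccr3, Il5ra and Siglec5 were at 6.18, 3.55 and 0.458 RPKM. Together the eosinophil, basophil and mast cell names took 0.511% of the reads and 0.806% of the summed RPKM.

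**Figure D2:**
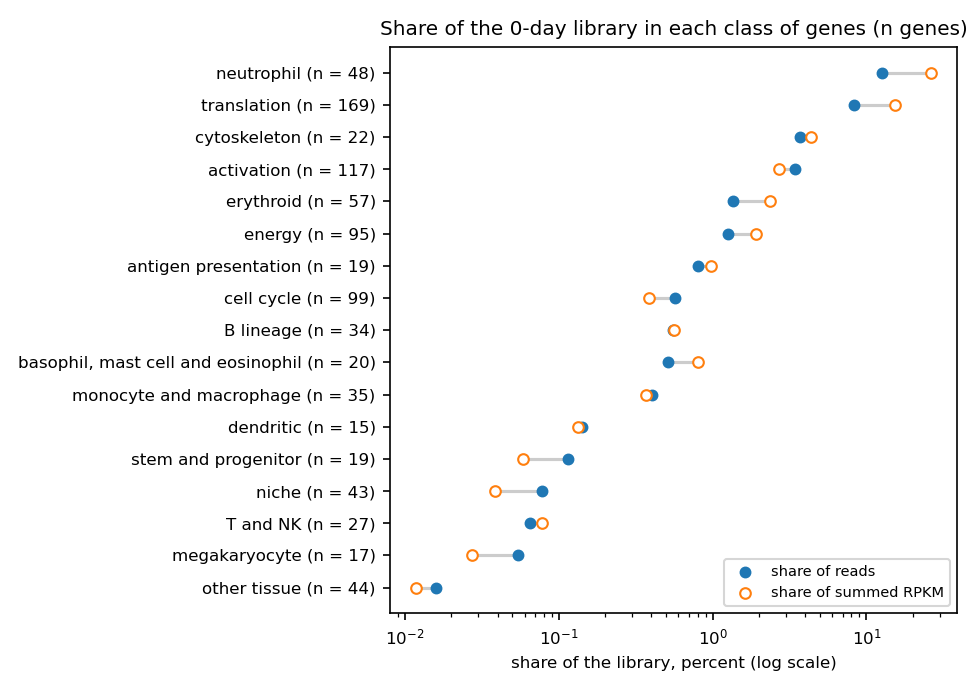
Share of the 0-day library in each class of genes (horizontal axis, percent, log scale), as a share of reads (filled) and of summed RPKM (open). n is the number of genes of the class. Neutrophil genes took 12.7% of the reads and 26.4% of the summed RPKM, and genes of other tissues 0.0159% and 0.0118%.

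The 57 erythroid genes took 1.36% of the reads and 2.37% of the summed RPKM, and the globins 0.759% of the reads. Of the globin genes, Beta-s stood at 6999 RPKM, Hba-a1 at 2253, Hbb-b1 at 1696 and Hba-a2 at 1304. The adult beta globin names summed to 8702 RPKM and the alpha names to 3557 RPKM, a ratio of 2.45. Embryonic globins were near the floor. Hba-x had 4 reads, Hbb-bh1 had 2 and Hbb-y had none. Hbb-bt, Hbb-bh2 and Ahsp had no row.

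The division of reads between globin copies is uncertain. Hba-a1 and Hba-a2 encode alpha globin, and their coding sequences of 429 bases differ at 1 position, C381T, counted from the start codon of Hba-a1. Positions 351 to 410 of both, taken from the GENCODE M21 transcripts of GRCm38, are shown to make this visible, with the differing base in capitals.
Hba-a1: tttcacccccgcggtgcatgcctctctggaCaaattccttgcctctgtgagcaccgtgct
Hba-a2: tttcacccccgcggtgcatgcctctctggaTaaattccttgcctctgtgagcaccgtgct
The longest identical run was 380 bases. In Hba-a1, 88.8% of the stretches of 50 bases were found in transcripts of other genes, in Hba-a2 86.9% and in Beta-s 65.8%. How reads that match several copies were counted is not given in the sources used here. The values of single copies, the sum of the alpha names and the ratio of beta to alpha globin all carry this limit.

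Genes of heme synthesis were expressed throughout, at 13.7 to 175 RPKM in all 13 names. Alas2, the first and rate-limiting enzyme in erythroid cells, led at 175 RPKM, and among the others were the mitochondrial iron carrier Slc25a37 at 83.7 and Tmem14c at 83.1. Among red cell membrane and enzyme genes, Prdx2, a peroxiredoxin, was at 395 RPKM, Car2, a carbonic anhydrase, at 284 and Blvrb at 192. The median of this list was 36.7 RPKM over 28 names, and its geometric mean of RPKM + 0.1 was 23.2 RPKM. Of the erythroid regulators, Nfe2 was highest at 109 RPKM, with Lmo2 at 56.4, Klf1 at 26.5 and Zfpm1 at 26.1. The median of the 8 regulators was 24.2 RPKM, beside 46.6 RPKM for heme synthesis.

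Monocyte and macrophage genes took 0.404% of the reads over 35 names. Ly6c2, which encodes the Ly6C antigen of inflammatory monocytes, stood at 932 RPKM, Lgals3, galectin 3, at 306, the lipopolysaccharide co-receptor Cd14 at 148 and Mpeg1, a pore-forming protein, at 127. Resident macrophage genes were lower, with a median of 9.60 RPKM over 16 names. Hmox1, the heme-degrading enzyme, was at 67.7 RPKM, and the 3 chains of complement C1q, which macrophages secrete, were at 62.4, 54.1 and 51.0 RPKM. Siglec1, the CD169 of niche macrophages, was at 1.09 RPKM and Emr1, the gene of F4/80, at 11.6. In the dendritic cell list, Ly6d was at 412 RPKM, Bst2 at 174, Irf8 at 111 and Siglech at 52.3. Zbtb46, Xcr1 and Clec9a of conventional dendritic cells were at 0.650, 0.796 and 3.62. The median of the list was 10.4 RPKM. These levels are of the whole library, and which cells supplied the leading names was not tested.

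Lymphoid transcripts were mostly those of the B lineage. The B lineage took 0.549% of the reads over 34 names, and T and NK genes 0.0646% over 27 names. Cd79a and Cd79b, the signalling chains of the B cell receptor, stood at 827 and 523 RPKM, and the B cell precursor gene Vpreb3 at 362. Of the mature B cell list, Cd37, Cd72, Ms4a1 and Faim3 were highest, at 395, 142, 77.9 and 70.0 RPKM. Cd37 held 37.2% of the reads of this list, and Cd22 and Cr2 were at 24.3 and 2.17 RPKM. Its median was 35.1 RPKM, or 23.1 RPKM with members without a row counted at 0. Ighm and Ighd had no row in the tables. The plasma cell list had a median of 8.67 RPKM, or 16.1 RPKM over members with at least 1 RPKM. It was led by the coactivator Pou2af1 at 107 RPKM, Mzb1 at 74.8 and Irf4 at 66.3, which other B lineage cells also express, and by Igj, the immunoglobulin J chain, at 23.6. Sdc1, Derl3, Prdm1 and Tnfrsf17, which mark plasma cells more narrowly, were at 7.19, 2.41, 1.57 and 0.238. The T cell list, with a median of 10.5 RPKM, was led by Cd2 at 68.2, Cd4 at 19.7, Thy1 at 15.1 and Lck at 14.9 RPKM. Cd3g, Cd3d and Cd3e were at 11.5, 10.5 and 7.04 RPKM. The NK list was led by Nkg7 at 120, the chemokine Ccl5 at 62.5, Gzma at 50.7 and Gzmb at 16.3.

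Megakaryocyte, stem cell and niche genes took small shares of the reads, 0.0545%, 0.114% and 0.0774%, and of the summed RPKM, 0.0273%, 0.0589% and 0.0386%. At least 1 RPKM was found for 82.4% of the megakaryocyte, 78.9% of the stem and progenitor, 66.7% of the osteolineage, 55.6% of the osteoclast and 46.2% of the endothelial names, against 63.6% of all names. The megakaryocyte list had a median of 2.35 RPKM, and Plek, a protein kinase C substrate that other leukocytes also express, held 66.3% of its reads. Nrgn was at 25.4 RPKM, Pf4, platelet factor 4, at 11.3 and Itga2b, the CD41 chain, at 10.8, and Gp6 had no read. The stem and progenitor list had a median of 4.87 RPKM over 19 names, beside 3.47 RPKM over all names. Its highest names were Sox4 at 97.5, Myb at 89.8, Cd48 at 53.6 and Gpr56 at 44.3 RPKM, whereas Procr, Slamf1, Mecom and Fgd5, which mark HSCs more narrowly, were at 1.11, 1.05, 0.116 and 0.0914. The medians of the osteolineage, endothelial and osteoclast lists, 1.82, 0.707 and 1.15 RPKM, lay below that of all names. Over names with at least 1 RPKM only, the medians were 8.00 RPKM for the stem and progenitor, 5.78 for the osteolineage, 3.06 for the endothelial and 10.2 for the osteoclast list, beside 10.7 RPKM for all such names. In the niche class of 43 names that the last 3 lists form, Spp1, osteopontin, was at 25.7 RPKM, Sparc at 16.03, Cxcl12, the chemokine that retains HSCs in the BM, at 15.9 and Col1a1 at 13.7. The osteoblast regulators Sp7 and Runx2 were at 0.197 and 0.129 RPKM and the osteocyte gene Dmp1 at 0.0700. Endothelial genes were led by Pecam1 at 38.1 RPKM, Egfl7 at 7.65, Eng at 3.61 and Cdh5 at 2.51, and Pecam1, which leukocytes share, held 68.8% of the reads of that list. The osteoclast list was led by Acp5, the tartrate-resistant phosphatase, at 31.7 RPKM, Nfatc1 at 21.0, Itgb3 at 10.2 and Ctsk, cathepsin K, at 5.04, and Calcr had no row.

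**Figure D3:**
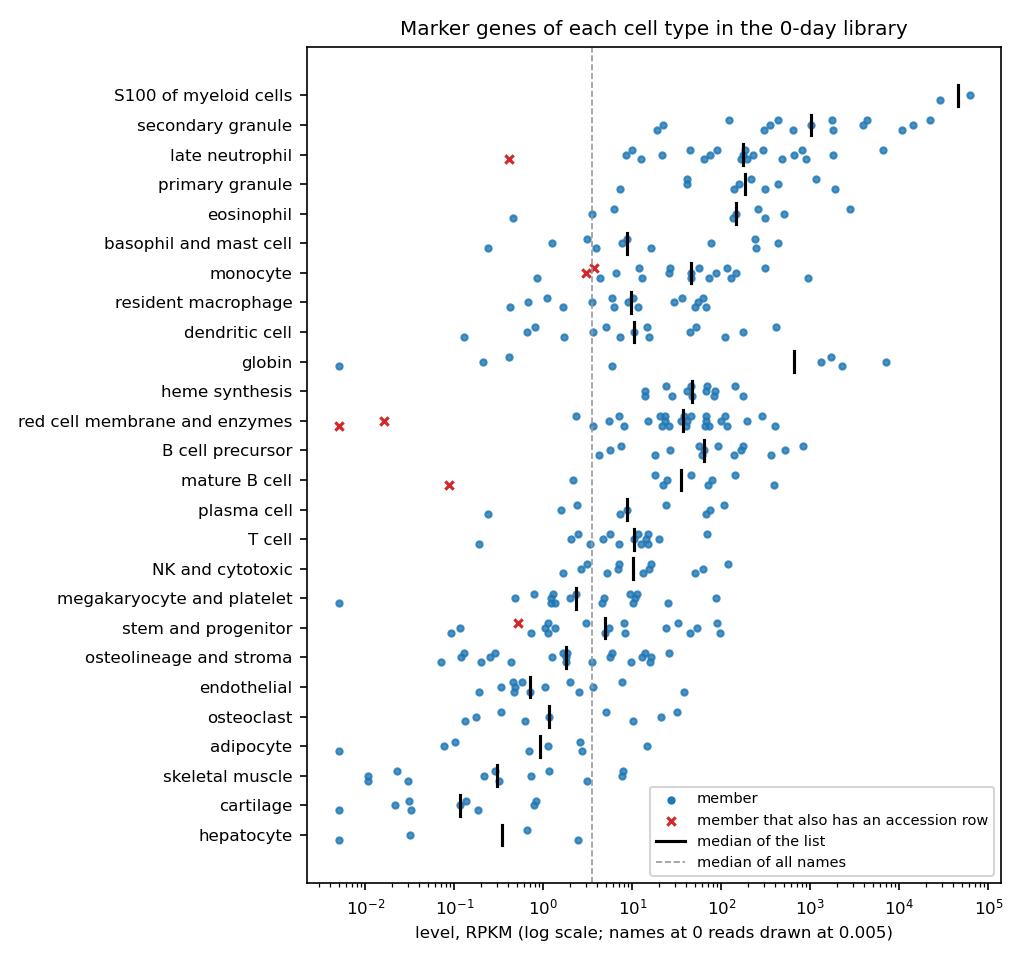
Level of each member of 26 marker lists (horizontal axis, RPKM, log scale) in the 0-day library, with the median of each list (bar) and of all names (dashed line, 3.47 RPKM). Crosses are names that also have a row under a transcript accession. Secondary granule genes had a median of 1017 RPKM and cartilage genes one of 0.116 RPKM.

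The label of BM was checked against marker lists. The secondary granule, heme synthesis and B cell precursor lists had medians of 1017, 46.6 and 63.0 RPKM, and all of their members with a row had at least 1 RPKM, against 63.6% of all names. The 6 lists of other tissues had medians of 0.116 to 0.913 RPKM, below that of all names, 0 to 50% of their members had at least 1 RPKM, and their 44 names took 0.0159% of the reads. Single genes of these lists, Fabp4, Mbp, Tnni2, Mylpf and Cdh1 among them, were above the median of all names. The cartilage list had a median of 0.116 RPKM, with Col10a1 at 0.821 and Acan without a read, and skeletal muscle a median of 0.303 RPKM, with Tnni2 and Mylpf highest at 7.82 and 7.68. Fabp4 was at 14.7 RPKM and led the adipocyte list, in which Lep had no row and Plin1 no read. Of 12 hepatocyte genes, 8 had no row, and Alb had 1 read. Mbp, at 14.5 RPKM, held 91.2% of the reads of the neural list, which had no row for Syt1 and Stmn2 and no read of Snap25. Of the Y-linked genes, Eif2s3y was at 36.2 RPKM and Ddx3y at 18.3, and Xist was at 0.0324 RPKM, as in male cells. No row of the mitochondrial genome was found in the tables.

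The genes of the LECT2 pathway and of the antibodies used in the study covered a wide range. Lect2 had no row. Cd209a, which encodes the receptor that the study assigns to LECT2, had 239 reads and 10.4 RPKM (interval 9.10 to 11.8), and Met, its other receptor, 1.61 RPKM. Among TNF genes, Tnf was at 92.0 RPKM and its receptors Tnfrsf1a and Tnfrsf1b at 40.5 and 20.2 RPKM. Cxcr4, the receptor of Cxcl12, reached 422 RPKM, and Dpp4, the CD26 peptidase that cleaves that chemokine, 18.7 RPKM. Csf3, the gene of G-CSF, was at 0.520 RPKM, Bgn at 5.96, Runx2 at 0.129 and Nes had no read. In the antibody panel, Itgam, the CD11b chain, was at 165 RPKM, Cd34 at 24.1, Flt3 at 14.5, Kit at 8.19, Klrb1c at 7.05, Cd8a at 5.56 and Itgav at 2.11. Ly6a, the gene of Sca-1, had 8 reads and 0.522 RPKM.

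Translation genes formed the second largest class, with 8.36% of the reads and 15.3% of the summed RPKM over 169 names, and 49 of the 100 highest names. All 79 cytosolic ribosomal protein genes had a row. Their median was 1010 RPKM, and 62 of them lay within 2-fold of it. The highest were Rpl41, Rplp1, Rps24 and Rps12, and the lowest Rpl31 at 0.307 RPKM, which also has a row under a RefSeq transcript accession, and Rps27 at 7.74 RPKM. Ribosomal protein genes have many processed copies in the genome. In 46 of the 79, over 50% of the stretches of 50 bases were shared with other genes. These had a median of 1035 RPKM and the other 33 a median of 998.6 RPKM. The translation factors were led by Eef1a1 at 2483 RPKM, Tpt1 at 1821, Eif1 at 772 and Eif5a at 660. Mitochondrial ribosomal protein genes were lower, with a median of 24.7 RPKM over 76 names, Mrps21 highest at 163, then Mrpl33 at 120, Mrps18c at 105 and Mrpl20 at 99.97.

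Cytoskeletal, metabolic, proteasome and antigen presentation genes were also among the abundant transcripts. The 22 actin cytoskeleton genes took 3.71% of the reads, and 9 of them were at 1000 RPKM or more, with Arhgdib at 2032 and Tmsb10 at 1793 RPKM behind Actb and Tmsb4x. The nuclear genes of oxidative phosphorylation had a median of 93.8 RPKM, led by Ndufa3 at 418, Cox6b1 at 411, Cox5b at 407 and Cox6c at 369, and Cox8b, a muscle isoform, had no read. Glycolysis was led by Aldoa at 471, Gpi1 at 352, Ldha at 352 and Gapdh at 315 RPKM. In Gapdh, 90.4% of the stretches of 50 bases were shared with other genes, so its level is uncertain. MHC class I transcripts were led by B2m, H2-K1 at 717, H2-D1 at 668 and Tapbp at 123.02 RPKM, and class II transcripts by the invariant chain Cd74 at 1037, H2-Aa at 383, H2-Ab1 at 354 and H2-Eb1 at 131. Proteasome genes were led by Psmb1 at 203, Psmb3 at 173, Psma6 at 154 and Psma1 at 154.

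**Figure D4:**
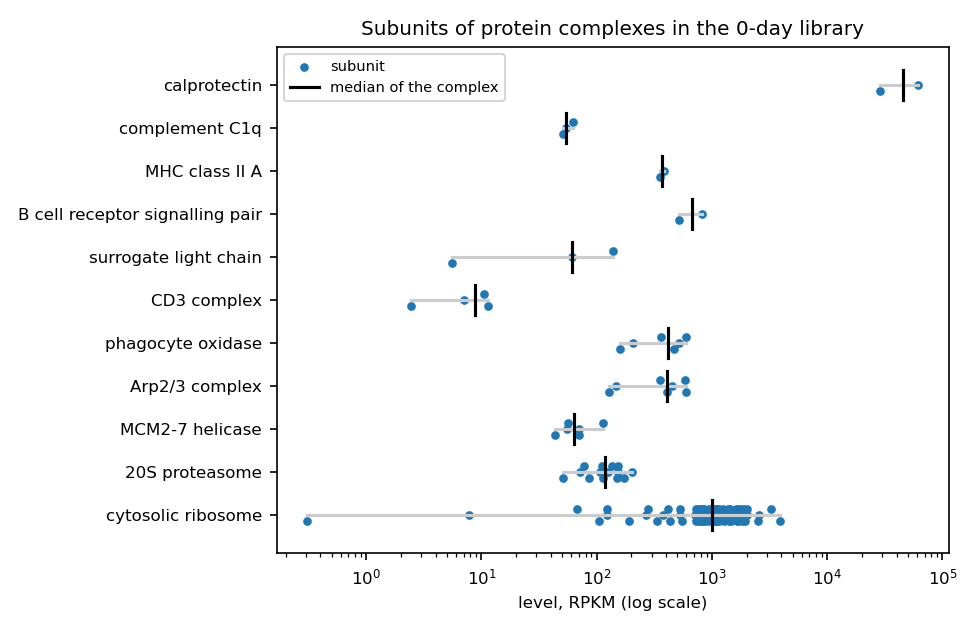
Level of each subunit (horizontal axis, RPKM, log scale) of 11 protein complexes in the 0-day library, with the median of each complex (bar). Subunits of complement C1q lay within 1.22-fold of each other, whereas those of the surrogate light chain ran from 5.56 to 139 RPKM. The lowest point of the cytosolic ribosome is Rpl31, which has a row under a transcript accession.

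Subunits of the same complex had similar levels in several cases. C1qa exceeded C1qc by 1.22-fold (interval 1.12 to 1.34) and H2-Aa exceeded H2-Ab1 by 1.08-fold (1.05 to 1.12). Cd79a was 1.58 times Cd79b. The helicase of DNA replication, MCM2-7, ran from Mcm4 at 43.8 to Mcm7 at 114 RPKM, and 13 of 14 subunits of the 20S proteasome were within 2-fold of their median, between Psmb5 at 51.0 and Psmb1 at 203 RPKM. The Arp2/3 complex, which branches actin filaments, ran from Arpc4 at 129 to Arpc2 at 596 RPKM. CD3 ran from Cd247 at 2.44 to Cd3g at 11.5 RPKM, and 84.0% of the stretches of 50 bases in Cd247 were shared with other genes. The surrogate light chain spread further, from Vpreb2 at 5.56 to Igll1, the lambda 5 chain, at 139 RPKM. The leukocyte beta2 integrins, with 1 subunit without a row, ran from Itgax at 7.27 to Itgb2 at 271 RPKM. Gp9 and Gp5 of the platelet GPIb-IX-V complex were at 4.77 and 1.22 RPKM.

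Cell cycle transcripts took 0.570% of the reads. The replication genes had a median of 37.8 RPKM, with Pcna, the sliding clamp, at 332, Mcm7 at 114, Rrm2 at 81.1 and Mcm3 at 70.5. The mitosis genes had a median of 30.7 RPKM, with Ube2c at 147, Cenpa at 88.7, Top2a at 81.2 and Ccna2 at 75.5, and all 20 were at 1 RPKM or more, against 63.6% of all names. Promoters were found for 16 of these 20, and 15 held ATTGG, the reverse complement of the CCAAT box, on either strand. This motif was in 37.4% of all promoters of the table. Several motifs and lists were searched, and the mitosis list had the highest share of this motif. The other lists ran from 17.6% in B cell precursor to 70.6% in late neutrophil promoters. Replication-dependent histone genes had a median of 0.916 RPKM over 61 names. Over members with at least 1 RPKM the median was 2.93 RPKM, and the geometric mean of RPKM + 1 was 1.76 RPKM. The library was made from poly(A) RNA, and the part of this preparation in the histone values was not tested. Hist1h2ao at 327 RPKM, Hist1h1c at 144, Hist1h2bc at 41.6 and Hist3h2a at 37.6 were the highest.

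Activation transcripts took 3.41% of the reads over 117 names, which include heat shock genes with 0.479% and interferon-stimulated genes with 0.1399% of the reads. Without the heat shock list, the share was 2.93%. Of the 117 names, 37 were at 100 RPKM or more (31.6% against 4.45% of all names). The immediate early list was led by Zfp36, which destabilises cytokine messengers, at 1228 RPKM and the transcription factor Klf2 at 1147. The phosphatase Dusp1 at 388 and Btg2 at 348 followed. The median of the 30 names of that list was 77.1 RPKM, and Egr2 and Nr4a3 were at 5.33 and 1.09. In the AP-1 family, Junb stood at 716 RPKM, Fos at 700, Jund at 448 and Fosb at 287. Nfkbia, the inhibitor that NF-κB itself induces, was at 991 RPKM, Nfkbiz at 188, Tnfaip3 at 170 and Nfkbid at 154. Chemokine transcripts were led by Ccl3 at 835 RPKM, Ccl4 at 594, Ccl6 at 420 and Cxcl2 at 379. The cytokine and chemokine list had a median of 10.3 RPKM, or 37.5 RPKM over members with at least 1 RPKM. Its lower members included Cxcl1 at 11.8, Cxcl3 at 2.13 and Csf2 at 0.686 RPKM. Il1b was at 245 RPKM and Il6 at 85.5. Il12b had no read, and Il2 and Il17a had no row. The time between killing the mice and lysing the cells is not given in the sources used here, and its part in these levels was not tested.

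**Figure D5:**
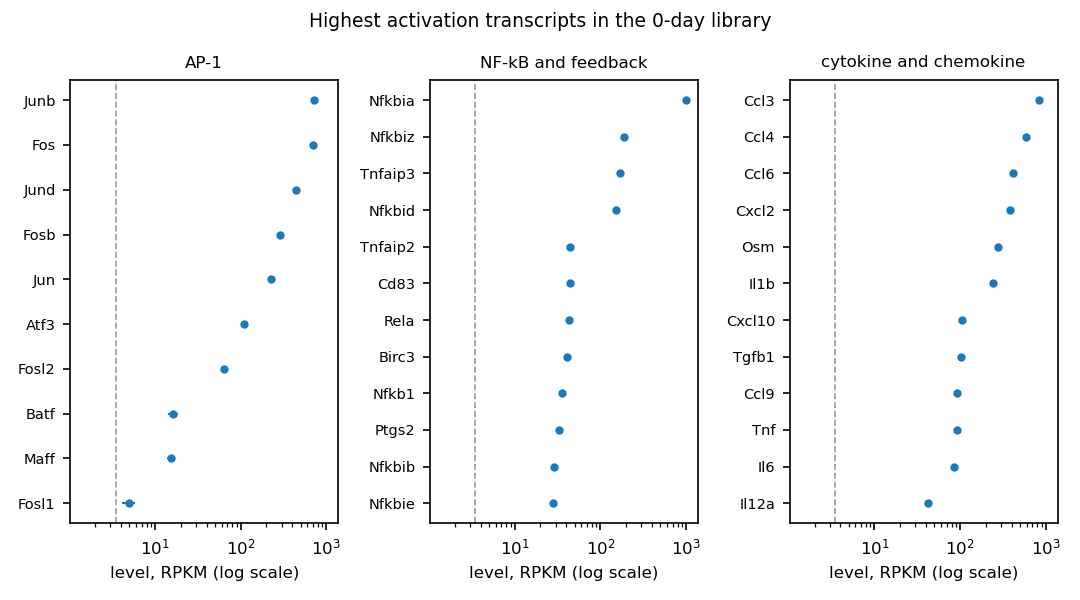
Level of the highest AP-1, NF-κB and cytokine genes, up to 12 each (horizontal axis, RPKM, log scale), in the 0-day library. Bars are 95% counting intervals, most of them smaller than the points, and the dashed line is the median of all names. Junb, Nfkbia and Ccl3 led their lists at 716, 991 and 835 RPKM.

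Heat shock transcripts differed widely in level. Hspa8, a constitutive chaperone, stood at 800 RPKM, the constitutive Hsp90ab1 at 546, the stress-inducible Hsp90aa1 at 474 and Hspe1 at 122. Of other inducible genes, Dnajb1 was at 32.8 RPKM, Hsph1 at 9.56, Hspa1a at 1.24 and Hspa1b at 0.619. Hspa1a and Hspa1b share 66.3% and 62.3% of their stretches of 50 bases with other genes, so their levels are uncertain. The same holds for Hspa8 with 86.3% and Hsp90aa1 with 65.6%.

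Some genes that BM cells are known to express highly had low values. Ptprc, the gene of the leukocyte antigen CD45, had 82 reads and 0.949 RPKM, Csf3r, the G-CSF receptor, 25 reads and 0.408 RPKM, and Lcp1, the leukocyte plastin, 61 reads and 1.05 RPKM. Fth1, the ferritin heavy chain, had 2 reads, against 28335 reads of the light chain Ftl1 at 1851 RPKM, of whose stretches 90.6% are shared with other genes. Each of Ptprc, Csf3r, Lcp1 and Fth1 has a row in the tables under a RefSeq transcript accession, beside or in place of the row under a gene ID. This held for 22 of the 960 list members, and 20 of the 22 (90.9%) were under 10 RPKM, against 29.7% of the other 938. Over the tables, the 177 gene-ID rows of names that also have an accession row had a median of 0.122 RPKM, and 16566 gene-ID rows of other names one of 3.87 RPKM. Rpl31, Gfi1, Ly6a, Ctss, Ciita, Irf7 and Npm1 are further such names, at 0.307, 0.194, 0.522, 3.71, 0.0127, 0.326 and 38.5 RPKM. How reads were assigned to these rows was not tested, and the low values of these genes were not read as low expression.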

How the data were processed

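Libraries were prepared from poly(A) RNA of flushed BM cells with the Illumina TruSeq RNA kit, which does not mark strand, so overlapping genes cannot be told apart. The methods name Cufflinks 1.0.3 and the submitters' processing notes name the build mm8; the aligner is not given in the sources used here. The deposited tables compare 2 time points each. The authors give whole read counts per gene, and the RPKM that the authors deposited equalled these counts divided by gene length and by the 15523952 listed reads, except in 18 rows with up to 27 reads. Genes without reads, listed at 0.01 RPKM, were set to 0. The tables also hold the authors' log2 ratios, P values and false discovery rates, which were not used. The 0-day columns of both tables were identical over 16687 shared rows.

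Of 17559 rows, 28 had no symbol and 17 of these were named from RefSeq. A name with several rows (232 names) was represented by its row of highest RPKM. Intervals are exact at 95% (Poisson for levels, Clopper-Pearson for shares and ratios) and were tested on simulated data. Named genes were the 20 highest by RPKM, the 10 with the most reads, the 4 highest of each list, members without a row or read, all genes of the LECT2 and antibody lists, and the highest and lowest subunit of a complex. Some genes that this rule selects are not reported here. Other names were chosen after their values were seen, and the members and lists were chosen with earlier results of these data known. Stretches of 50 bases were compared with GENCODE M21 transcripts (GRCm38) for 1000 genes. In 101 of these, over 50% of the stretches were shared with other genes, as in Eef1a1 with 60.6%. The levels of all such genes are uncertain, also where this is not said beside the value. Promoters came from RefSeq GRCm38.p6, which is not the build of the deposited files. Alternatives were summed rows, the table of 0 against 5 days alone, a minimum of 10 reads, shares of summed RPKM or of reads outside the 100 highest names, other summaries of the lists and ranking by reads. Leaving out names with an accession row or the heat shock list was added after seeing the data, and Vpreb3, not a chain of the surrogate light chain, was taken out of that complex after its value was seen. Python 3.11.15, pandas 2.3.3, numpy 2.4.6 and scipy 1.17.1 were used.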

Additional observations from a re-analysis of the deposited data

How the results depend on the processing

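With 1 library there is no replicate error, and no paired analysis was possible because only 1 library entered and no test was made. Numbers of detected names, shares under summed rows or the table of 0 against 5 days alone, and shares without names that have an accession row stayed within their limits. As shares of summed RPKM, the 10 and 100 highest names held 26.4% and 47.7%, neutrophil genes 26.4%, translation 15.3%, activation 2.68%, erythroid 2.37%, B lineage 0.563%, cell cycle 0.388%, monocyte and macrophage 0.371%, T and NK 0.0774%, niche 0.0386% and other tissue 0.0118%. Among reads outside the 100 highest names, the shares were 1.505% for neutrophil, 3.31% for translation, 3.75% for activation, 0.803% for erythroid, 0.757% for cell cycle, 0.729% for B lineage, 0.428% for monocyte and macrophage, 0.103% for niche, 0.0857% for T and NK and 0.0211% for other tissue. Without the heat shock list, activation took 2.93% of all reads and 3.12% of those outside the 100 highest names. Ranked by reads, 13 of the 20 highest names were shared. Of 53 list medians, 19 moved by over 1.5 times when only members with at least 1 RPKM were kept, 18 and 11 when geometric means of RPKM + 1 and RPKM + 0.1 were taken, 5 when members without a row were counted at 0, and 2 without names that have an accession row. The globin median of 655 RPKM became 1696, 66.1, 36.6 and 0.409 under the first 4 of these, the AP-1 value was 102 instead of 168 and the eosinophil value 67.2 instead of 147 as geometric means of RPKM + 0.1, and with members of at least 1 RPKM the osteoclast median was 10.2 instead of 1.15 and the megakaryocyte median 4.64 instead of 2.35. Without accession rows, interferon-stimulated genes went from 15.8 to 24.2 RPKM and iron storage from 926 to 1851 RPKM. The level of names with 1 to 3 reads, 1861 in all, was set by counting error.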

Other observations

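Several abundant transcripts belonged to none of the lists. Among the 100 highest names these were 15, with S100a11 at 2179 RPKM, the lymphocyte and myeloid surface gene Cd52 at 1940, the Fc receptor gamma chain Fcer1g at 1706, prothymosin Ptma at 1679, Hmgn2 at 1536, annexin Anxa1 at 1432, the histone variant H3f3b at 1340 and the surface antigen Cd24a at 1325. Of these, H3f3b encodes a histone whose messenger is polyadenylated. Tyrobp, the gene of the DAP12 adaptor of myeloid receptors, was at 889 RPKM.

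Among lineage transcription factors, Sfpi1, the gene of PU.1, stood at 193 RPKM, Pax5 at 165, Cebpb at 153 and Irf8 at 111. Interferon-stimulated genes were led by Ifitm3 at 695 RPKM, Ifitm2 at 324, Ifitm1 at 96.5 and Rsad2 at 60.7. In the epithelial list Cdh1 was at 6.69 RPKM and held 84.7% of the reads, and Krt5 and Krt14 had no row. Among noncoding RNAs, Malat1 was at 364 RPKM, Rn7sk at 220, Neat1 at 98.0 and Gas5 at 94.0, and the ribosomal RNA precursor Rn45s had 22928 reads, 0.148% of the library. Ly6c2 had 12653 reads, and its neighbour gene Ly6c1, which has accession rows, had 33. The value of Ly6c1 was not read as low expression, and how reads were shared between these copies was not tested.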
